A study of Mus musculus with 6 samples.

Results

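The comparison described here is that of B16-F1 cells carrying a short hairpin RNA (shRNA) against macroH2A1 with B16-F1 cells carrying a control hairpin. It was taken from the array titles, which placed 2 arrays in the macroH2A1 shRNA group and 2 in the Control shRNA group, 4 of the 6 arrays measured. B16-F1 is a melanoma cell line from C57BL/6J mice, and all groups shared this background, the lentiviral vector system and culture in DMEM with serum. The control hairpin targets GFP, and the other 2 arrays came from a line with a hairpin against macroH2A2. Hairpins were stably expressed. The labels do not say whether a line was a clone or a pool, or how many hairpins were used against macroH2A1. The titles call the arrays biological replicates, and the p-values below measure the spread between these arrays.

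MacroH2A1, the product of the gene Macroh2a1, is a histone H2A variant in which a histone fold is joined to a large globular macro domain. Nucleosomes that hold it are found on the inactive X chromosome and over broad domains of silent chromatin, and also over some genes that are switched on by signals. One splice form of the macro domain binds ADP-ribose. In melanoma, macroH2A proteins have been studied as factors whose loss accompanies more malignant growth, with Cdk8 as a gene of interest.

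The arrays gave 1 signal intensity for each probe set, a group of short probes that reads the 3′ part of a transcript. Of 45037 probe sets other than the array's own controls, 34945 carried 1 gene symbol, and genes are named only from these. Signals were compared as log2(signal + 16), which understates the fold change of dim genes, and 27025 probe sets bright enough to be tested stood for 12088 genes. The 2% trimmed mean was 150.0 on every array, so a change in the total amount of RNA could not be seen. Melanoma cell markers were bright in all 4 arrays: 7 of 7 were tested, and their summed signal was 33600.3 and 32809 in the control arrays and 35749 and 41995 in the macroH2A1 shRNA arrays. Markers of other cells were dim, with 5 of 9 leukocyte, 3 of 9 fibroblast, 1 of 6 keratinocyte and 1 of 6 endothelial markers bright enough to be tested and no signal above 82.9. Their summed signals overlapped between the groups for leukocyte, fibroblast and endothelial markers, and those of keratinocyte markers were 52.7 and 38.0 against 28.5 and 31.7, whose part in the results was not tested. The ratio of 3′ to 5′ probe sets lay between 0.81 and 0.84 for Gapdh and between 1.24 and 1.28 for Actb.

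The target came first. Macroh2a1, read by a single probe set, gave signals of 1213 and 1262 in the control arrays and of 444 and 319 in the macroH2A1 shRNA arrays. The groups were well apart, and the level in the macroH2A2 shRNA arrays, 1271 and 1171, stood with the control. The difference was -1.67 on the log2 scale, or 3.19-fold. With 2 arrays against 2 an exact permutation test cannot give a two-sided p below 0.333, so differences were tested with limma, which shares the estimate of spread across probe sets. For Macroh2a1 its Benjamini-Hochberg adjusted p was 0.123 (SE 0.17) when the replicate number was ignored. It was 0.0012 (SE 0.15) with that number as a block. Directly against the macroH2A2 shRNA line the difference was -1.65, with an adjusted p of 0.309 when the number was ignored and of 0.00545 when blocked. Macroh2a2 was not bright enough to be tested, with signals between 2.0 and 11.9 on all 6 arrays.

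The block matters because replicate 1 and replicate 2 differed in a like way in all lines, so each gene is also given within its replicate number. Median signals were 24.6, 20.6 and 19.5 on replicate 1 of the control, macroH2A1 and macroH2A2 lines. On replicate 2 they were 15.1, 15.4 and 16.2. Without the block 0 of 27025 probe sets (0%) passed an adjusted p of 0.05, the smallest being 0.123. An unadjusted p under 0.05 was found for 1189, 570 of them higher and 619 lower. This is less than the 0.05 share expected if no probe set differed. The blocked test called 52 probe sets (0.192%), of which 23 were higher and 29 lower, and the groups did not overlap in any of the 52. The 47 with 1 symbol stood for 41 genes, 21 that fell and 20 that rose, and "rose" and "fell" below refer to this blocked test. These calls are sensitive to how the spread is estimated: with no filter on dim probe sets 0 passed with the block (smallest adjusted p 0.0807), and with only the 4 arrays compared 508 passed. Leaving out 1 array of the comparison left between 16 and 23 of the 41 genes past the threshold: 16 without control replicate 1, 21 without control replicate 2, 23 without macroH2A1 replicate 1 and 16 without macroH2A1 replicate 2. Leaving out either macroH2A2 array was hardly a further check. The remaining array then sets its own group mean and adds nothing to the spread, so the fit is nearly that of the 4 arrays compared. The 8 genes that kept an adjusted p under 0.05 whichever of the 6 arrays was left out were Macroh2a1, Mndal, Cited1, Oas1a and Pgd, which fell, and Gpx4, Washc5 and Atp5g1, which rose.

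**Figure D1:**
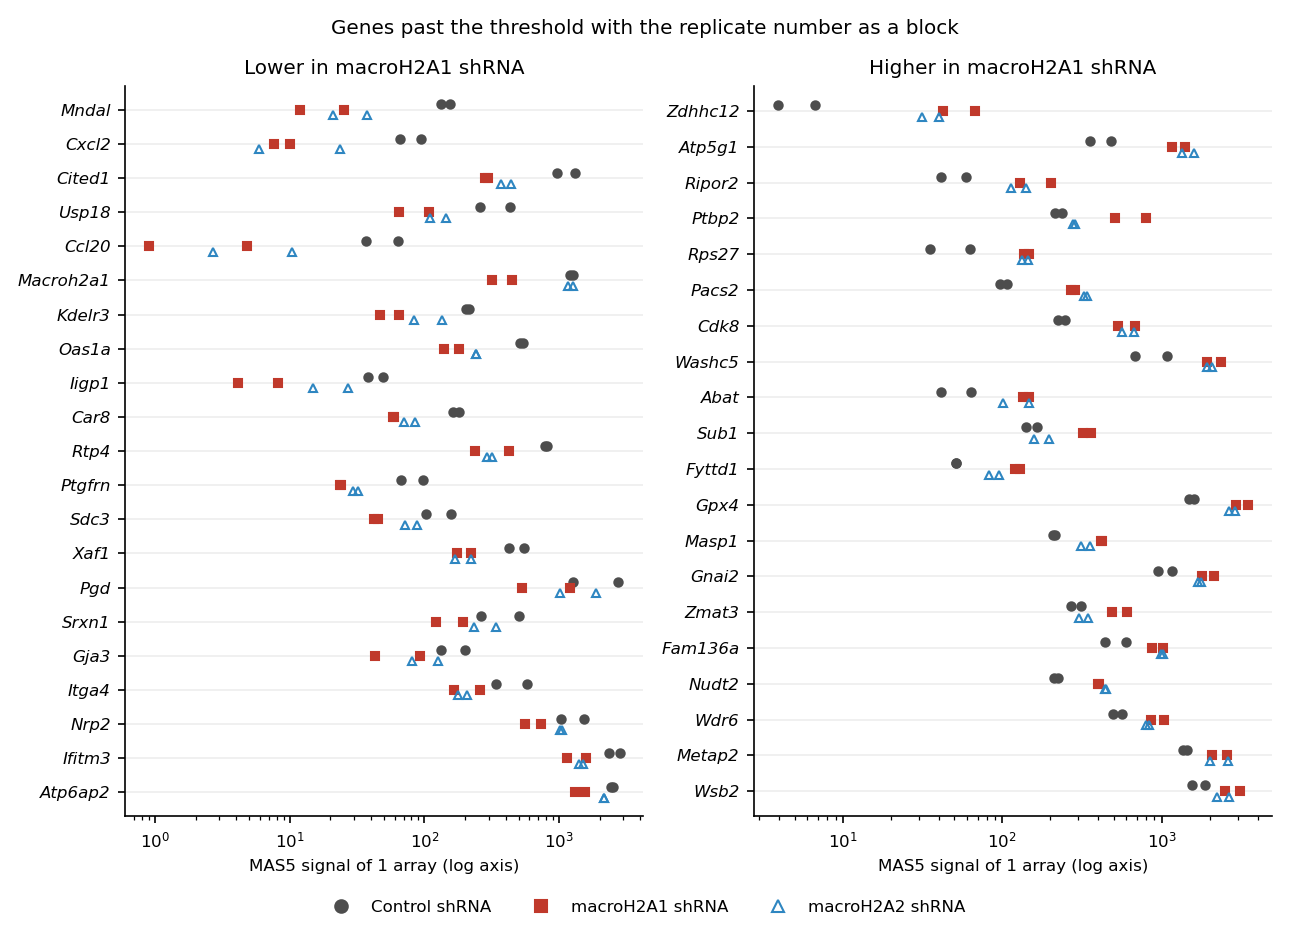
Signal of each array (log axis) for the 41 genes past an adjusted p of 0.05 with the replicate number as a block, 21 lower (left) and 20 higher (right) in macroH2A1 shRNA. Grey circles are control arrays, red squares macroH2A1 shRNA arrays and open blue triangles macroH2A2 shRNA arrays. Red and grey points do not overlap for any gene, and the macroH2A2 shRNA arrays of Macroh2a1 lie on its control arrays.

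Taken within replicate number, 125 genes (1.03% of 12088) were at least 1.5-fold lower in both sets and 51 (0.422%) at least 1.5-fold higher in both. With the arrays centred on their medians these counts were 90 and 75, and after quantile normalisation 99 and 57, so the excess of lower genes depends on the scaling. At 2-fold they were 17 and 9. Over all genes 51.8% were lower and 48.2% higher, with a median log2 difference of -0.01. Counts of lower and higher list members below are to be read against these shares. Counts of called members are to be read against the 0.192% of probe sets called. Centring the arrays on their medians moved the share of higher genes to 60.9%, so small shifts shared by many genes depend on the scaling. Groups that merely do not overlap are common with 2 arrays a group: 15.2% of genes were higher and 16.8% lower in both macroH2A1 shRNA arrays than in both control arrays.

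**Figure D2:**
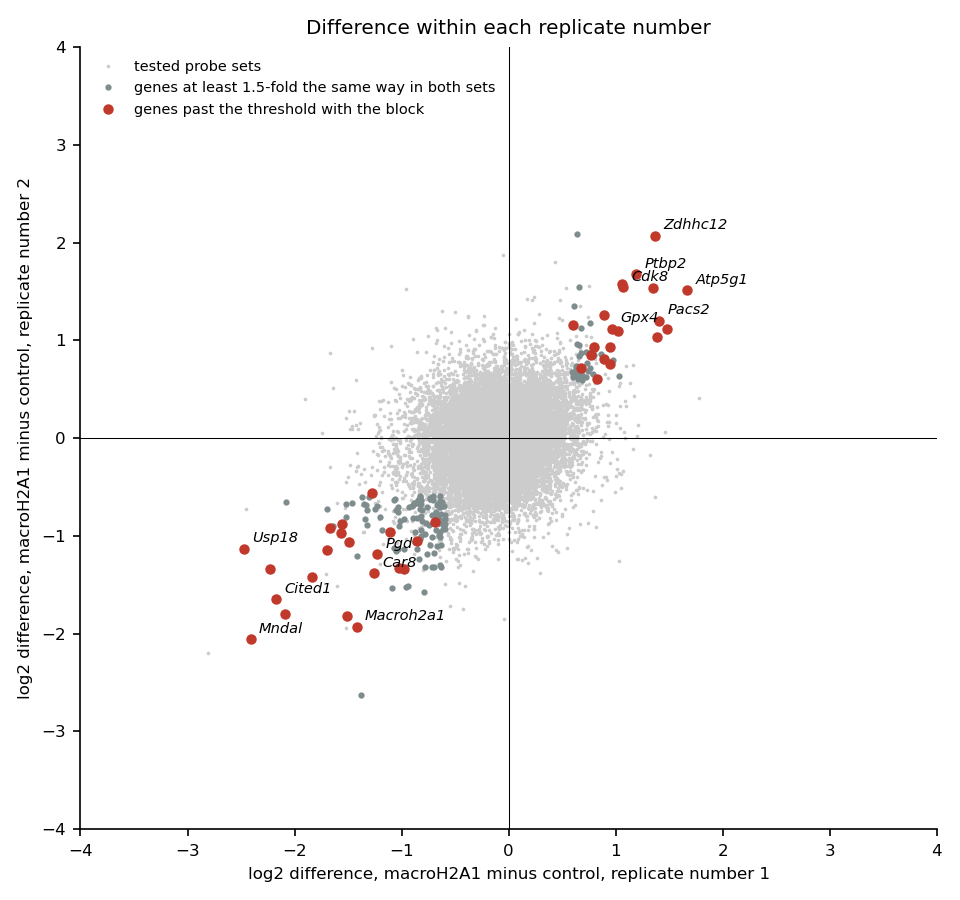
Log2 difference, macroH2A1 shRNA minus control, in replicate number 1 (horizontal) and in replicate number 2 (vertical). Light points are the 27025 tested probe sets, darker points the 176 genes at least 1.5-fold the same way in both sets, and red points the 41 genes past the threshold with the block. Macroh2a1 is at -1.42 and -1.93.

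Of the 41 genes, 5 belonged to the list of interferon-stimulated genes, 1 to the cytosolic ribosomal proteins and 0 to the hypoxia and glycolysis list, which left 35 outside these lists. The 35 include the target Macroh2a1. They also include Mndal and Iigp1, which are not on the interferon list but are described with the interferon response below. Among the 35 the transcriptional coregulator Cited1 stood out by size and brightness. Cited1 binds CBP and p300 and was first described as a gene of pigmented melanoma cells. Its signals were 1322 and 969 in the control arrays and 282 and 297 in the macroH2A1 shRNA arrays. The loss was 3.76-fold (log2 -1.91, SE 0.16, adjusted p 0.00111 with the block), at -2.17 and -1.65 in the replicate sets. Of the 8 tested genes of the Cited and CBP/p300 list, Cited1 fell and 0 rose, against 0.192% of all tested probe sets called. Its relative Cited2 stood near the control, at 1524 and 1413 against 1509 and 1504. Tfap2a, a transcription factor of the neural crest, read 549 and 501 against 644 and 732, without passing (adjusted p 0.42 with the block).

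Among genes of cystine import, glutathione synthesis and NADPH supply, looked at together after their values were seen, Pgd and Srxn1 fell and the others did not pass the test. These proteins keep thiols and peroxides in check: the transporter Slc7a11 brings in cystine, Gclc and Gclm join it to glutamate as the first step of glutathione synthesis, Gsr returns oxidised glutathione to its reduced form, and Pgd makes NADPH in the pentose phosphate pathway. Pgd fell from 1268 and 2755 to 532 and 1196. Its control arrays lay far apart, and the higher macroH2A1 shRNA array came close to the lower control array, but the loss was nearly the same in each replicate set, -1.23 and -1.19, and the adjusted p was 1 when the number was ignored and 0.00282 when blocked. All 4 tested Pgd probe sets were lower, with log2 differences from -1.21 to -0.62, and 1 of them passed. The brightest read 1666 and 3196 against 1284 and 1755, with overlapping groups (adjusted p 0.141 with the block). Srxn1, which repairs overoxidised peroxiredoxins, fell from 264 and 507 to 122 and 193, a 2.26-fold change that held in direction for its 4 tested probe sets and passed for 2 of them.

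Slc7a11 had the largest difference of the redox genes without passing the test. Its signals were 255 and 216 in the control arrays and 87.6 and 21.4 in the macroH2A1 shRNA arrays (log2 -2.01, SE 0.43, adjusted p 0.116 with the block). Gclm read 411 and 896 against 231 and 290.1, an adjusted p of 0.0662 with the block. Gclc read 389 and 547 against 245 and 273, Gsr 534 and 807 against 337 and 443, and the haem-degrading enzyme Hmox1 779 and 656 against 419 and 306. The adjusted p of these 5 genes with the block lay between 0.0662 and 0.157. Other genes of the same steps were nearer to the control: the glutathione synthetase Gss read 141 and 122 against 99.1 and 132, and Slc3a2, the partner chain of Slc7a11, read 1660.1 and 1355 against 1477 and 1153. The iron exporter Slc40a1 was also lower, at 184 and 224 against 88.4 and 68.5 (adjusted p 0.0868 with the block).

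Gpx4 went the other way. It encodes the glutathione peroxidase that reduces lipid hydroperoxides inside membranes, and its loss triggers ferroptosis. Its signals rose from 1492 and 1598 to 2942 and 3499 (2.07-fold, log2 1.05, SE 0.10, adjusted p 0.00282 with the block). A second Gpx4 probe set gave the same log2 difference, 1.05, and also passed.

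In the list of glutathione peroxidases and antioxidant enzymes 1 of 20 tested members rose (Gpx4) and 1 fell (Srxn1). There 15 were lower and 5 higher with a median of -0.10, but 11 lower and 9 higher when the arrays were centred on their medians. At least 1.5-fold lower in both sets were 5, or 3 with that centring. Abundant members near the control level were the thioredoxin Txn1, which read 5897 and 6554 against 6192 and 6218, and the peroxiredoxin Prdx4, which read 1219 and 1394 against 1235 and 1277. In the ferroptosis and iron list 0 of 15 members passed in either direction, 11 were lower and 4 higher, and the median was -0.20. The ferritin heavy chain Fth1, at 7492 and 7518 against 8203 and 8267, was among those that were higher.

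**Figure D3:**
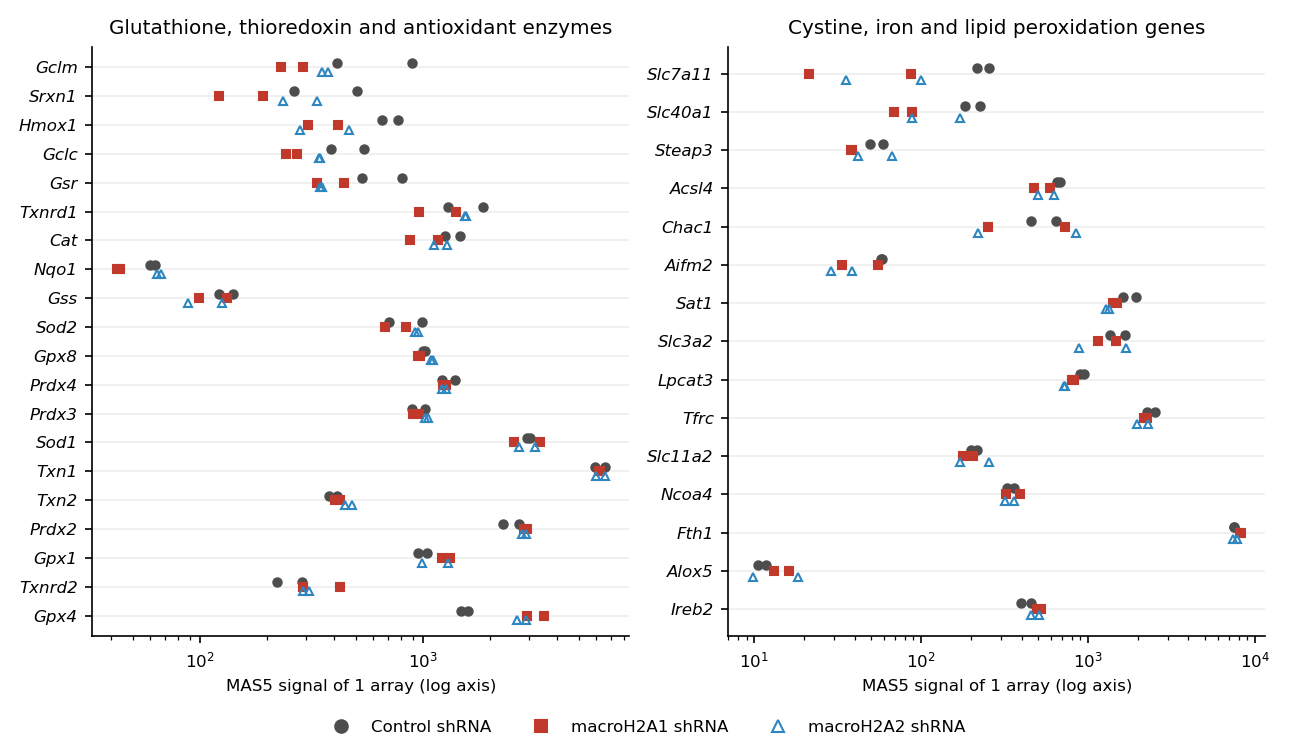
Signal of each array (log axis) for the 20 tested glutathione, thioredoxin and antioxidant genes (left) and the 15 tested cystine, iron and lipid peroxidation genes (right), ordered from the lowest to the highest log2 difference. Symbols are grey circles for control, red squares for macroH2A1 shRNA and open blue triangles for macroH2A2 shRNA. On the left, 8 genes are lower in both macroH2A1 shRNA arrays than in either control array: Gclm, Srxn1, Hmox1, Gclc, Gsr, Cat, Nqo1 and Gpx8. There 4 are higher in both: Gpx4, Txnrd2, Gpx1 and Prdx2. On the right, 7 are lower and 3 higher in this way. Over all genes 16.8% were lower and 15.2% higher in this way.

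The 250 bases upstream of the start sites were searched, after the values were known, for the antioxidant response element core TGACNNNGC on both strands. It was present in 11.5% of 27025 genes with a promoter entry in RefSeq (GRCm38.p6), in 1 of 17 genes that fell (Kdelr3) and in 1 of 14 that rose (Pacs2). Of the redox genes above, Pgd, Srxn1, Slc7a11, Gclm and Gpx4 had an entry, and Gclm held a match, shown in capitals and lying on the other strand, in the stretch from 159 to 101 bases before its start:
Gclm, chr3:122245398-122245456, plus strand: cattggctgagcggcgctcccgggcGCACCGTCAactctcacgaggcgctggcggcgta
A match describes letters in this window and is no evidence of a bound factor.

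The chemokine genes Cxcl2 and Ccl20 fell, as did several genes of cell-surface molecules. Cxcl2 and Ccl20, chemokines that attract neutrophils and lymphocytes, were dim to begin with: Cxcl2 fell from 94.8 and 66.1 to 10.1 and 7.6, and Ccl20 from 63.5 and 36.5 to 0.9 and 4.8. Cxcl1, the neighbour of Cxcl2 in the genome and brighter, read 639 and 406 against 139 and 253, without passing (adjusted p 0.12 with the block). The interferon-inducible Cxcl10 read 494 and 628 against 259.7 and 386, also without passing (adjusted p 0.0688 with the block). Of the adhesion receptors, Itga4, the alpha chain that pairs with Itgb1 to bind fibronectin and VCAM1, fell from 578 and 338 to 259 and 166 (2.05-fold, adjusted p 0.044 with the block). Nrp2, a co-receptor for class 3 semaphorins and for VEGF, fell from 1030.3 and 1528 to 560.1 and 727, and all 4 of its tested probe sets were lower, at log2 differences of -1.14 to -0.82.

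Further genes that fell encode mainly membrane proteins. Sdc3, a heparan sulphate proteoglycan, went from 157 and 103 to 42.4 and 44.9. Ptgfrn, an immunoglobulin-superfamily partner of tetraspanins, went from 96.9 and 67.0 to 24.2 and 23.8. The gap junction protein Gja3 went from 198 and 132 to 93.0 and 42.6. Atp6ap2, an accessory subunit of the vacuolar proton pump that is also known as the prorenin receptor, fell by a smaller step but at high signal, from 2499 and 2422 to 1547 and 1323. All 3 of its tested probe sets were lower, at log2 differences of -0.78 to -0.53, but only this one, the dimmest, passed. The brightest read 3863 and 3693 against 2876 and 2359 (adjusted p 0.0897 with the block). Kdelr3, which retrieves escaped chaperones to the endoplasmic reticulum, fell from 213 and 205 to 64.4 and 46.6. Car8, a carbonic anhydrase relative without enzymatic activity, fell from 162 and 181 to 58.4 and 59.5.

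Integrins as a family leaned lower. Of 14 tested, 13 were lower and 1, Itgb3, was higher, against 51.8% lower over all genes, and 1 fell (Itga4) and 0 rose. The median was -0.34, with -0.31 and -0.27 in the replicate sets, and 13 were lower under each scaling tried. The abundant chains were close to the control: Itgav read 2789 and 2413 against 2330 and 2480.0, and Itgb1 read 1670 and 1032 against 1253 and 1029.8. The list's median depended on the array left out: it was -0.11 without control replicate 1, -0.14 without macroH2A1 replicate 2, -0.47 without macroH2A1 replicate 1 and -0.49 without control replicate 2. Itgb5, a vitronectin receptor chain, read 310.1 and 204 against 167 and 129 (adjusted p 0.191 with the block). Semaphorins, plexins and neuropilins did not share the direction of Nrp2, with 16 of 25 higher, against 48.2% of all genes. Carbonic anhydrases had 9 of 14 lower and only Car8 past the threshold.

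Among genes that rose, several encode regulators of transcription, splicing and signalling. Cdk8, the kinase of the Mediator complex, rose from 246 and 224 to 533 and 681 (2.47-fold, adjusted p 0.00835 with the block). Of 7 tested genes of the Mediator kinase module it was the one called, and its paralogue Cdk19 read 320.3 and 260.2 against 253 and 226. Its cyclin Ccnc read 174 and 167 against 151 and 129, also lower without passing, while Med12l read 56.7 and 78.1 against 123 and 116. In the 26 core Mediator subunits 0 passed, and 17 were higher. Over all, 0.192% of tested probe sets passed and 48.2% of genes were higher.

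Ptbp2, the neuronal relative of the polypyrimidine tract binding protein, rose from 215 and 238 to 511 and 797 (2.70-fold, log2 1.43, adjusted p 0.0101 with the block). It read 288 and 278 in the macroH2A2 shRNA arrays. Zmat3, an RNA-binding zinc finger protein induced by p53, rose from 271 and 310.0 to 485 and 606, against 302 and 344 with the macroH2A2 hairpin. Sub1, a transcription coactivator, rose at one probe set from 166 and 142 to 321 and 362. Its other probe set, far brighter, read 2838 and 3004 against 2906 and 3198, a log2 difference of 0.06.

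A direct comparison of the macroH2A1 and macroH2A2 lines, added after the values were seen, was past the threshold for 1 of the 41 genes, Macroh2a1. The direct log2 differences with the block were not past it for Ptbp2 (adjusted p 0.135), Pgd (0.135), Sub1 (0.183), Atp6ap2 (0.183), Zmat3 (0.203), Srxn1 (0.204) and Nrp2 (0.273), which had the smallest values after Macroh2a1. Many of the other genes lay near the same level in both knockdown lines, so their difference from the control is not shown to be particular to the macroH2A1 hairpin. The mean of the macroH2A2 shRNA arrays lay on the same side of the control for all 41 genes, though close to it for Macroh2a1. In the macroH2A2 shRNA arrays Cited1 read 440.2 and 367, Cdk8 565 and 669, and Gpx4 2637 and 2892. Washc5 read 1932 and 2075 there, and Atp5g1 1600.2 and 1338. The direct log2 differences, macroH2A1 minus macroH2A2 line, were -0.45 for Cited1, -0.03 for Cdk8, 0.22 for Gpx4, 0.09 for Washc5 and -0.19 for Atp5g1. Both knockdown lines were set against the same 2 control arrays, so their differences from the control are not independent, and a p that misses the threshold does not show equal levels. Over all 27025 probe sets 1 passed directly with the block and 0 without it, where 739 had an unadjusted p under 0.05. That count is also less than the 0.05 share expected if no probe set differed.

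Signalling and trafficking genes were also among those that rose. Gnai2, an inhibitory G protein alpha subunit, rose from 1167 and 945 to 1780 and 2131, and both of its probe sets passed. Of 22 tested G protein subunits it was the one called, against 0.192% of all tested probe sets. Gnai3 read 1049 and 1285 against 968 and 1130. Wsb2, a substrate receptor of a ubiquitin ligase, rose from 1541 and 1871 to 2483 and 3082. Washc5, a subunit of the WASH complex that shapes endosomes, rose from 680 and 1078 to 1926 and 2357 (2.46-fold, adjusted p 0.00403 with the block).

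Pacs2, a sorting protein of endosomes and of contacts between mitochondria and the endoplasmic reticulum, rose from 96.8 and 108 to 284 and 268 at one probe set. The other, which is dimmer, read 69.9 and 52.9 against 69.8 and 49.3. In the list of sorting genes Pacs2 alone was called of 33, with 20 higher. Over all, 0.192% of tested probe sets were called and 48.2% of genes were higher. Ripor2, an inhibitor of RhoA, went from 41.1 and 59.5 to 129 and 201.3. Zdhhc12, a palmitoyl transferase, was listed at 6.7 and 3.9 in the control arrays and at 42.5 and 67.3 in the macroH2A1 shRNA arrays, so its size is uncertain at the low end.

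Of mitochondrial genes, Atp5g1, Abat and Fam136a rose. Atp5g1, one of the genes for the membrane ring subunit of ATP synthase, rose from 357 and 482 to 1168 and 1396 (log2 1.59, SE 0.16, adjusted p 0.00282 with the block). Its paralogues Atp5g2, at 2164 and 2109 against 2424 and 2526, and Atp5g3, at 5057 and 5004 against 5234 and 6525, did not pass, and the probe sets of such close copies can share signal. All 16 ATP synthase genes tested were higher, with a median of 0.19, but 4 of them were lower after quantile normalisation, where the median was 0.07. Only Atp5g1 was called. Abat, the mitochondrial GABA transaminase, rose from 41.4 and 63.8 to 135 and 147, and Fam136a, a mitochondrial protein, from 442 and 594 to 870 and 1017.

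The remaining genes that rose have varied functions. Metap2, which removes the first methionine of new proteins, rose from 1432 and 1357 to 2565 and 2071, and passed at 2 of 4 probe sets. Nudt2, which cleaves dinucleoside polyphosphates, rose from 210.1 and 222 to 404 and 401. Fyttd1, an adaptor of messenger RNA export, rose from 51.0 and 51.4 to 120.2 and 129 at its dimmest probe set. Only this probe set of 4 passed. The brightest read 664 and 725 against 963 and 1057 (adjusted p 0.171 with the block). Wdr6, a protein with WD repeats, rose from 495 and 566 to 854 and 1034 at its dimmer probe set. The brighter one read 1733 and 1880 against 2631 and 2624.5, without passing (adjusted p 0.0897 with the block). Masp1, a protease of the lectin pathway of complement, rose from 207 and 213 to 413 and 421. All 5 of its tested probe sets were higher, and 1 of them passed. The ribosomal protein gene Rps27 rose from 62.7 and 35.0 to 148 and 137. These signals are dim for this family: the 43 tested cytosolic ribosomal protein genes summed to 216545 in control replicate 1. Whether this probe set reads the main Rps27 transcript was not tested.

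Genes of the interferon response fell, as one of the lists kept for reference. Mndal, a member of the interferon-inducible HIN-200 family of DNA-binding proteins, fell from 133 and 156 to 12.0 and 25.3 (4.70-fold). Oas1a, which senses double-stranded RNA, fell from 539 and 513 to 139 and 182, Usp18 from 429 and 256 to 64.5 and 109, and Rtp4 from 790 and 816 to 238 and 423. Ifitm3 fell from 2820 and 2342 to 1152 and 1587, Xaf1 from 550 and 423 to 176 and 222, and the dim GTPase gene Iigp1 from 49.2 and 37.8 to 4.1 and 8.2. In the list 26 of 28 were lower, against 51.8% of all genes. Of the 28, 5 fell and 0 rose, against 0.192% of all tested probe sets called. The promoters of 2 of the 17 genes that fell and had an entry, and of 0 of 14 that rose, held the core of the interferon-stimulated response element, GAAA and GAAA separated by NN, on either strand, against 3.46% of 27025 genes. These are the matching stretches, with the core in capitals:
Mndal, start 1, chr1:173880189-173880248, minus strand: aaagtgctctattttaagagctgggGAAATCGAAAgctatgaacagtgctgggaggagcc
Mndal, start 2, chr1:173879978-173880037, minus strand: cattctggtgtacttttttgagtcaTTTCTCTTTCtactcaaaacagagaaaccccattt
Oas1a, chr5:120907526-120907570, minus strand: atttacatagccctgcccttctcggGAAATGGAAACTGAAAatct
The sequences are from RefSeq on GRCm38.p6 and run in the direction of the gene. In Oas1a a pair of cores overlap.

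Of the genes chosen for the size of their difference among probe sets with a mean signal of at least 100, 67 were lower and 48 higher, and the 15 largest in each direction were considered. Those not yet named and not past the threshold included Trim30a, an interferon-inducible TRIM protein, at 291 and 272 against 78.5 and 157. Higher were Gxylt2, a xylosyltransferase that modifies Notch, at 496 and 566 against 767 and 1467, and Larp4, a poly(A)-associated RNA-binding protein, at 129.8 and 173 against 296 and 299.9. Ttc7b, a scaffold of the phosphatidylinositol kinase complex at the plasma membrane, read 74.4 and 63.1 against 137 and 163. Col9a1, a cartilage collagen chain, read 74.4 and 58.2 against 162 and 113. Their adjusted p with the block lay between 0.0579 and 0.0926.

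Beyond the interferon, hypoxia and ribosomal lists 69 gene lists were examined, where 0.192% of all tested probe sets passed the threshold with the block. Of these lists 11 held a gene whose brightest probe set passed it. In 10 of the 11 it was a single gene, and the antioxidant list held a pair. One of these single genes is Macroh2a1 itself, in the list of H2A variants. The other 58 held none by this measure, although a dimmer probe set of a member passed in some, as for Nrp2 among the semaphorins and neuropilins and Atp6ap2 among the proton pump genes. A blocked adjusted p that misses the threshold does not show that these genes were equal in the lines.

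Chromatin-modifying and structural genes were examined in 7 lists, apart from the H2A variants, macro domain, Mediator and Cited lists described separately. In these lists of histone methyltransferases, demethylases, acetyltransferases and deacetylases, remodellers, DNA methylation genes, Polycomb complex 1 genes, linker histones and HMG proteins, 135 genes were tested. Of these 65 were lower and 70 higher, with a median of 0.01, and 0 passed either fit. None was 1.5-fold apart in both replicate sets, and the range over the brightest probe sets was -0.71 to 0.43. A dimmer probe set of the remodeller subunit Smarcc1 lay outside it, at 1.12, without passing (adjusted p 0.171 with the block). The lowest was the linker histone H1f2, at 1074 and 1264 against 512 and 965. The Polycomb component Pcgf5 read 132 and 141 against 75.3 and 91.3. Of the other H2A variants, H2ax, the variant phosphorylated at DNA breaks, read 414 and 391 against 232 and 283 (adjusted p 0.182 with the block), while H2az1 read 5017 and 5746 against 5953 and 6434.

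Stress genes of the unfolded protein response and amino acid response had 27 of 35 members lower and 8 higher, with a median of -0.25, and 0 passed in either direction. The lean was carried by replicate number 2, where the median was -0.34, against -0.04 in replicate number 1. Trib3, a pseudokinase induced by amino acid shortage, read 634 and 364 against 466 and 97.0, and Nupr1 read 518 and 454 against 629 and 185, higher in one replicate set and lower in the other. The chaperone Hspa5 read 4347 and 5242 against 4404 and 5177. Sterol and fatty acid synthesis genes had 19 of 24 higher, with a median of 0.28 in replicate number 1 and 0.02 in replicate number 2, and 0 passed.

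Matrix and cytoskeletal groups held no gene past the threshold. Of 24 tested collagens, laminins and matrix glycoproteins 17 were lower, with a median of -0.36 in replicate number 1 and 0.03 in replicate number 2. Of 25 matrix proteases and inhibitors 19 were lower. Among septins and intermediate filament genes 12 of 17 were lower, led by Septin4, at 124 and 80.3 against 36 and 25.6 (adjusted p 0.0897 with the block). Gsn, which severs actin filaments, was higher at 1849 and 1942 against 2807 and 3000.3 (adjusted p 0.105 with the block). Translation factors had 31 of 41 higher with a median of 0.09, and 23 of 41 after quantile normalisation, with 0 past the threshold.

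Pigment genes were spread in both directions: 18 of 28 were higher and 10 lower, and 0 passed. Tyr, the rate-limiting enzyme of melanin synthesis, read 1917 and 2032 against 1450.3 and 1443, whereas Oca2, a melanosomal transporter, read 555 and 508 against 669 and 904. Trpm1, a melanocyte channel, read 1013 and 1689 against 789 and 825. The melanosomal proteins Pmel and Dct read 5579 and 5542 against 6007 and 7365, and 7581 and 7354 against 8129 and 9998.

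**Figure D4:**
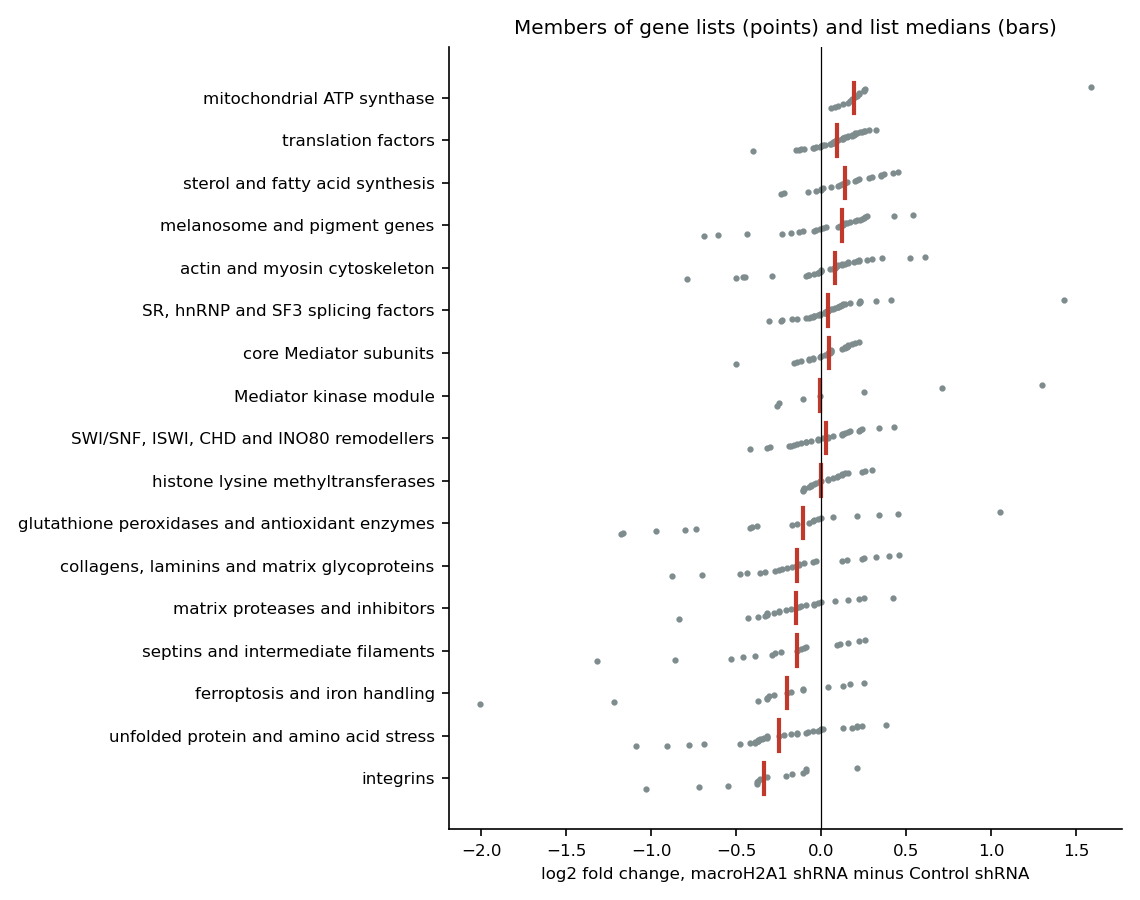
Log2 fold change, macroH2A1 shRNA minus control, of the tested members (points) of 17 gene lists, with the list median as a bar. The integrin median is -0.34 and the ATP synthase median 0.19, and Atp5g1, Ptbp2, Cdk8 and Gpx4 lie far to the right of the other members of their lists.

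Genes next to the 41 on the chromosome were examined for shared change. Ordered by RefSeq positions, 82 nearest tested neighbours were found, of which 43 had the sign of their neighbour. The median size of their log2 difference was 0.12, against 0.14 over all genes. Neighbours 1.5-fold apart in both replicate sets numbered 4: Cxcl1 beside Cxcl2 and Oas1b beside Oas1a, lower like their neighbours, and Masp1 and Rtp4, which lie next to each other and differed in opposite directions. Cxcl1 and Oas1b belong to the same gene families as their neighbours. Neighbours were read only from probe sets with 1 symbol, where Ifi203, beside Mndal, stood at -0.26. Probe sets that match Ifi203 and related loci at once were thus left out here. They were lower and passed with the block, at log2 differences of -1.4 and -1.73.

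Probe sets of the same gene did not always share a direction. Of 2822 genes with at least 2 probe sets at a mean signal of 100 or more, 62.5% had one sign throughout, and the median gap between the highest and lowest log2 difference was 0.13. Of 22 genes among the 41 with several tested probe sets, 19 had one sign throughout, the exceptions being Fam136a, Pacs2 and Wsb2. This count includes dimmer probe sets, and the 41 were chosen for their differences in the same data. It is therefore not comparable with the 62.5% and lends the calls no support. The widest gaps were in Lbh (-1.04 and 0.10), Sub1 (0.06 and 1.08), Smarcc1 (0.12 and 1.12), Tpm3 (-0.12 and 0.87) and Nisch (-0.50 and 0.39). In Tpm3, a tropomyosin gene with many splice forms, the higher probe set read 87.0 and 102 against 140.1 and 244.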

How the data were processed

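Gene expression was measured on 6 one-colour Affymetrix arrays, and the 4 of the macroH2A1 and control lines are compared here. The authors deposited 1 linear signal intensity per probe set; the tool was MAS5, per the submitters' processing notes, with no version stated here. The arrays had been scaled to a 2% trimmed mean of 150.0. From these, log2(signal + 16) was computed. Probe sets with a mean signal at or above the 40th percentile (10.4) were tested with limma 3.58.1 (R 4.3.3; lmFit and eBayes with a trend) on all 6 arrays with 3 group means, without and with the replicate number as a block, and adjusted by Benjamini-Hochberg over all 27025. The scripts were tested on simulated data. The number of arrays limits the precision.

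The labels number replicates alike in every line without naming a shared batch. Subtracting replicate 2 from replicate 1 within each line gave profiles whose pairwise correlations over probe sets were 0.576, 0.372 and 0.415, so the numbers were treated as pairing the samples. This pairing was read from the same data that were tested. Replicate 1 also had the higher median signal in every line, and its part in these correlations was not tested. The fit without the block was planned as the main fit, whereas the genes called here rest on the blocked fit.

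Genes are named from probe sets with 1 symbol, 932 having several and 9160 none. Named are Macroh2a1, genes past 0.05 in either fit whose groups do not overlap, the 15 largest rises and falls at a signal of at least 100, up to 4 members of a list by smallest p, the 5 widest gaps between probe sets, and chromosomal neighbours. Other genes named in a list, as steady or abundant members, were chosen after their values were seen. In lists the brightest probe set stands for a gene. The comparison and the 77 lists (1980 of 2127 entries matched) were chosen with earlier results of these data known. No genome build is stated for the files. The promoter search and the direct comparison of the knockdown lines were added after the data were seen. Further settings are in the closing section.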

Additional observations from a re-analysis of the deposited data

How the results depend on the processing

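Without the block the count of probe sets past the threshold was 0 under every setting run except arrays centred on their medians, where it was 3, and with the replicate block it was 52. With the replicate block the 52 became 32 at a pseudocount of 1, 22 after quantile normalisation, 24 with a filter at the 60th percentile, 0 with no filter and 508 with only the 4 arrays compared; it was 34 and 50 without control replicate 1 or 2, 67 and 26 without macroH2A1 replicate 1 or 2, and 515 and 514 without macroH2A2 replicate 1 or 2. The log2 fold change of Macroh2a1 with the replicate block passed the threshold at -1.67 (also with the 60th percentile filter and with only the 4 arrays), -1.71 at a pseudocount of 1, -1.69 after quantile normalisation and -1.61 with centred arrays, not with no filter (adjusted p 0.0807), and was -1.85 and -1.50 without control replicate 1 or 2 and -1.89 and -1.46 without macroH2A1 replicate 1 or 2. Genes at least 1.5-fold apart in both replicate sets numbered 307 lower and 105 higher at a pseudocount of 1, 90 and 75 with centred arrays, 99 and 57 after quantile normalisation, and 17 and 9 at 2-fold. The order of the dim genes by size depends on the pseudocount: at 1 the log2 fold change was -3.89 for Ccl20, -3.04 for Cxcl2 and -2.97 for Mndal, against -1.78, -1.94 and -2.23 at 16. At 1 Mndal still passed with the block, but Ccl20 and Cxcl2 did not.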

Other observations

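Of the 52 probe sets past the threshold with the block, 4 carried several gene symbols and 1 none, and all 5 were lower. The 3 that match Ifi203 or its relatives Ifi204, Ifi205 and Mndal read between 50.9 and 67.5 in the control arrays and between 5.7 and 18.0 in the macroH2A1 shRNA arrays. The fourth matches Csprs and related loci, at 39.0 and 35.4 against 0.8 and 3.6. The unnamed probe set read 119 and 109 against 42.7 and 35.2.

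The nuclear RNA Malat1 differed more between replicate numbers than between lines, at 2394 and 385 in the control arrays and 1302 and 237 in the macroH2A1 shRNA arrays, with log2 differences of -0.87 and -0.66 within the sets and an adjusted p of 0.0662 with the block. Genes of macro domain and ADP-ribose proteins had 12 of 20 lower, with Parp9 at 337 and 318 against 170.0 and 218 and Macrod1 at 222 and 185 against 113 and 97.9, and 0 passed.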
